A study of Gallus gallus with 8 samples.

Results

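GZMA, GZMK, XCL1, IFNG and IL18R1 are 5 genes that mark cytotoxic lymphocytes, that is natural killer cells and killer T cells. They were taken as all probes whose name on the array resolves to one of these genes, by gene number, symbol or RefSeq accession, which gave 14 probes of the 60539 on the array and 5 of the 7819 genes that could be named. The levels came from 8 single-colour Agilent arrays of a chicken design, 1 per sample. Of these, 4 held peripheral blood mononuclear cells (PBMC), separated by Ficoll density gradient right after sampling, and 4 held whole blood. All samples came from the same 4 male broilers, 9 weeks old, reared on a conventional diet and with no treatment named, and the replicate number in the labels gives the bird. No strain or line beyond broiler is named. The PBMC are a mixture, and so are the whole blood samples, in which chicken red cells and thrombocytes carry a nucleus and add RNA of their own.

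Cytotoxic lymphocytes kill by emptying granules onto a target cell. Granzymes are serine proteases of these granules, and in mammals they enter the target through pores and start its death. The same cells secrete interferon gamma, which activates macrophages and antigen presentation, and the chemokine XCL1, which in mammals attracts dendritic cells that carry the receptor XCR1. The cytokine IL18, bound by a receptor of which IL18R1 is the binding chain, drives interferon gamma production in natural killer cells and T cells. In chicken blood, natural killer cells are rare.

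Each level is the log2 of a probe's signal after subtracting the 75th percentile of its array on the log2 scale, and a difference is PBMC minus whole blood. That percentile lay between 663 and 846 signal units, 64.4% to 72.1% of the probes per array were well above background by the scanner software's flag, and no probe was saturated. Where a gene had several probes, its values are those of the brightest. Tests are from limma across 33761 features, with p adjusted by Benjamini-Hochberg and 0.05 as the threshold. Of all features, 79.1% differed between the sample types and 39.7% were higher in PBMC, so being higher in PBMC is common on these arrays. In such mixed samples, fewer cells of a type and less RNA per cell cannot be told apart. All arrays lay on 1 slide. Each slide column carried a single sample type, so an effect of the column cannot be told apart from that of the type. Birds 2 and 4 were in slide row 1, the other birds in row 2.

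All 5 genes were higher in PBMC than in whole blood, in all 4 birds. GZMA, GZMK, XCL1 and IL18R1 were 6.77-fold to 9.76-fold higher with no overlap between the groups. IFNG, not well above background in whole blood, was 6.70-fold higher over a floor explained below. No overlap in that direction was seen in 36.3% of the features with a value on every array. Of the 14 probes, 12 were bright enough to be tested, being well above background on all arrays of PBMC or of whole blood. Of the 12, 8 were well above background on every array of both sample types, and these 8 passed as higher in PBMC. The other 4, 3 of IFNG and 1 of IL18R1, entered the test only through PBMC, where they are high, so that they passed too is no further evidence. Of the 41901 probes tested, 40.4% were higher in PBMC. Probes of a gene share their target and are not replicates of each other.

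Granzyme A, GZMA, is a protease that cleaves after basic residues. Its brightest probe (T022055_G013548_GZMA_395108) stood at 2.45, 4.01, 2.84 and 3.09 in PBMC of birds 1 to 4, against -0.16, 1.31, -0.07 and 0.07 in whole blood. Bird 2 was the highest in both sample types and bird 1 the lowest in both. In processed signal units, these were 4608 to 12202 in PBMC and 692 to 1810 in whole blood. The mean was 3.1 ± 0.67 in PBMC and 0.29 ± 0.69 in whole blood (SD, n = 4 each), a difference of 2.81 ± 0.41 (SE; limma, adjusted p = 0.000175) or 7.0-fold. The second probe differed by 2.79 and the third by 2.55.

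Granzyme K, GZMK, another basic-residue protease, had the largest spread between birds of the 5 genes. It stood at -0.99, 0.29, -0.79 and 0.92 in PBMC of birds 1 to 4, against -4.14, -2.87, -4.39 and -2.32 in whole blood. Birds 4 and 2 were above birds 1 and 3 in both sample types, bird 4 the highest in each. The mean was -0.14 ± 0.90 in PBMC and -3.43 ± 0.99 in whole blood (SD, n = 4 each). The difference was 3.29 ± 0.56 (SE; limma, adjusted p = 0.000502), or 9.76-fold, and the other GZMK probe differed by 3.04. With normexp background correction the difference was 2.41, and in the authors' values, which carry no background correction, 2.48. In the RefSeq annotation GRCg7b the GZMK gene lies within the span of GZMA on the same chromosome, and whether a probe of one also binds RNA of the other was not tested. Their order of birds differed, with bird 2 on top for GZMA and bird 4 for GZMK on every probe and in both sample types.

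XCL1, the chemokine of activated killer cells, varied little between birds. Its PBMC levels were 0.68, 0.91, 0.90 and 0.46 in birds 1 to 4, against -2.12, -1.70, -2.0 and -2.27 in whole blood. Bird 2 was the highest and bird 4 the lowest in each sample type. The mean was 0.74 ± 0.21 in PBMC and -2.02 ± 0.24 in whole blood (SD, n = 4 each), a difference of 2.76 ± 0.17 (SE; limma, adjusted p = 1.14e-06) or 6.77-fold. The second XCL1 probe differed by 3.01.

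Interferon gamma, IFNG, was the dimmest of the 5, and none of its 5 probes was well above background on any whole blood array. The probe used stood at -3.90, -3.80, -3.88 and -3.67 in PBMC of birds 1 to 4, against -7.44, -7.44, -7.13 and -6.66 in whole blood, where it is not well above background. The PBMC levels spanned 0.23 and were the tightest of the 5 genes. In processed signal units they were 52 to 59, against 4 to 7 in whole blood. Set against a floor for whole blood, IFNG was 6.70-fold higher in PBMC, a fold that was not tested. The measured means were -3.81 in PBMC and -7.17 in whole blood, a difference of 3.35 ± 0.19 (SE; limma, adjusted p = 8.06e-07). The probe was tested only because it passed the filter in PBMC, and that p rests on whole blood values that are not well above background. That floor is, on each whole blood array, the lowest signal of any probe that counts as well above background, or the probe's own where it is higher. Probes above the floor can still lack the flag, as IL18 did on every whole blood array. The fold is therefore an estimate and not a strict lower limit. For the other IFNG probes PBMC exceeded the floor 6.52-fold, 3.03-fold, 2.23-fold and 1.82-fold, the last 2 of them too dim to be tested. With normexp the difference of the probe used was 0.66 and in the authors' values 0.82, against 3.35 in the values used here. All 3 values were past the threshold.

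IL18R1 stood at -1.51, -0.61, -0.58 and -0.21 in PBMC of birds 1 to 4, against -4.34, -3.73, -4.06 and -3.92 in whole blood. Bird 1 was the lowest in both sample types. The mean was -0.73 ± 0.55 in PBMC and -4.01 ± 0.26 in whole blood (SD, n = 4 each), a difference of 3.28 ± 0.27 (SE; limma, adjusted p = 4.92e-06) or 9.75-fold. With normexp it was 2.12, and the authors' values gave 2.21. The second probe was well above background on all PBMC arrays and on no whole blood array, and gave 9.89-fold over the floor described for IFNG.

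**Figure D1:**
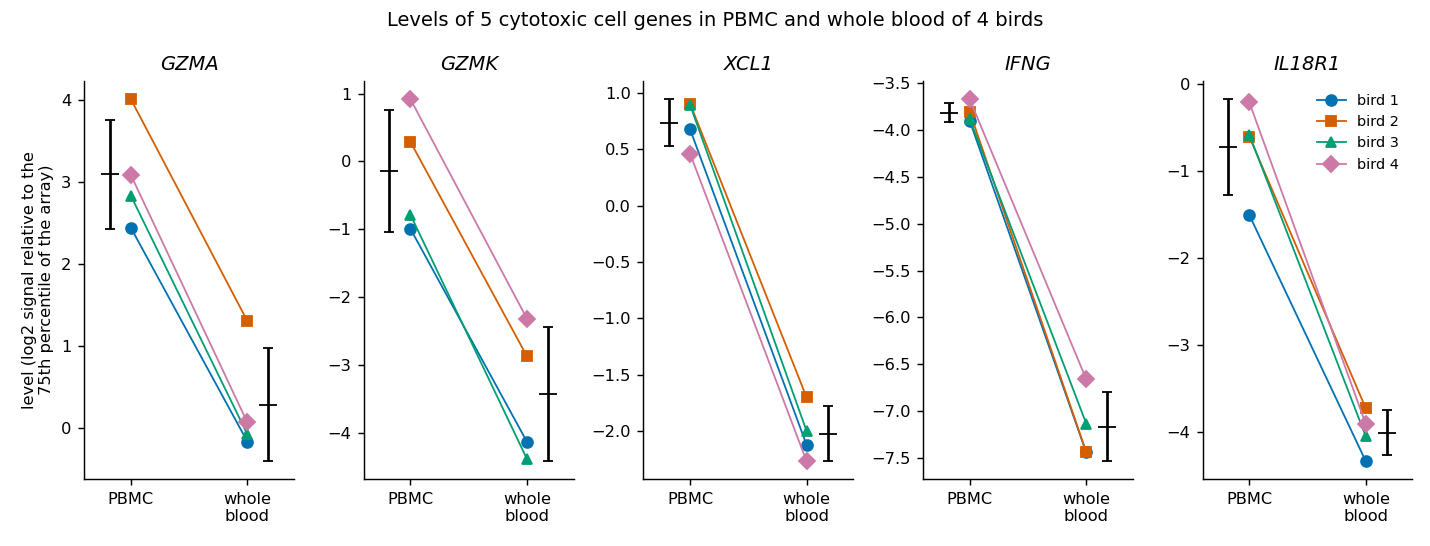
Level of each gene (brightest probe; log2 signal scaled to the array's 75th percentile; each panel has its own axis) in PBMC and whole blood of 4 birds, with lines joining the samples of a bird and black bars giving the mean ± SD (n = 4). The lines of GZMK lie far apart and nearly parallel. For GZMA bird 2 lies apart from birds 1, 3 and 4, which are close together in whole blood. In log2 units XCL1 and IFNG span less than GZMK in both sample types, and whole blood values of IFNG are not well above background.

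**Figure D2:**
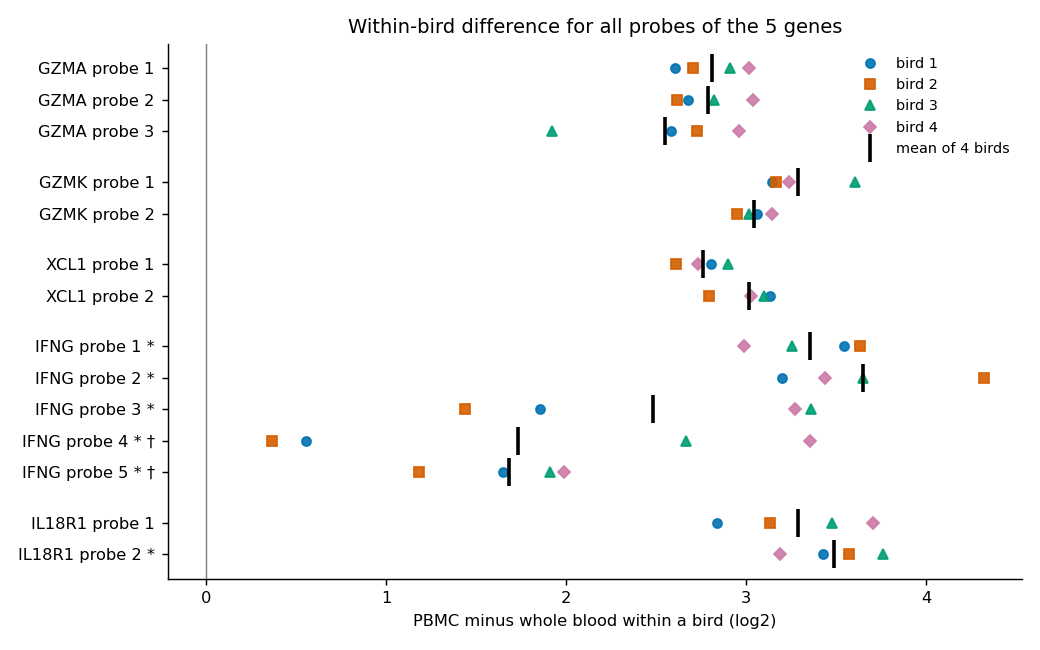
PBMC minus whole blood within each bird (log2) for the 14 probes, ordered by brightness within a gene, with a black bar at the mean of the 4 birds. A star marks probes well above background on no whole blood array and a dagger the 2 IFNG probes too dim to be tested. All 14 means lie above 0, between 1.68 and 3.65.

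For both granzymes the within-bird differences ranged less than the levels over the 4 birds. For GZMK the level ranged over 1.91 in PBMC and 2.07 in whole blood, but the difference only from 3.14 to 3.60 (SD 0.21, n = 4). For GZMA the levels ranged over 1.57 in PBMC and 1.47 in whole blood, and the difference from 2.61 to 3.02 (SD 0.19). For GZMA in whole blood this rested on bird 2. The whole blood levels of birds 1, 3 and 4, at -0.16, -0.07 and 0.07, were closer together than their differences, at 2.61, 2.91 and 3.02. The smaller range of the differences was also less marked for the third GZMA probe. Its levels ranged over 1.48 in PBMC and 1.33 in whole blood, and its difference from 1.92 to 2.96 (SD 0.45). For XCL1 the difference ranged from 2.61 to 2.90, for IL18R1 from 2.83 to 3.70 and for IFNG, with whole blood not well above background, from 2.99 to 3.63. Such closeness was not particular to the granzymes. For the B cell marker PAX5 the levels ranged over 1.46 in PBMC and 1.19 in whole blood, and the difference from 2.60 to 3.00 (SD 0.17). The share of all features that show this was not computed. With 4 birds no correlation over birds is given. Of the 4 genes measured on all whole blood arrays, 3 had the same highest bird in both sample types, all but IL18R1, beside 36.7% of all features. IFNG has no order of birds in whole blood.

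The other granule genes include proteins that break membranes, proteases and their inhibitors. The list of granule effectors also holds GZMA and GZMK, described above, and its counts include them. Of its 6 genes that matched a probe and were tested, 5 rose, or 83.3% beside 39.7% of all features. SRGN, a proteoglycan of granules, did not pass (-0.37 ± 0.22), but passed as lower in the authors' values (-0.57, adjusted p = 0.0154), with quantile normalization (-0.67, adjusted p = 0.0145) and with cyclic loess (-0.81, adjusted p = 0.00514). The median difference was 2.63, beside 0.0030 over all features. GNLY, the gene of the granule peptide NK-lysin in chickens, was bright in both sample types, at 5.18, 6.13, 5.69 and 6.0 in PBMC of birds 1 to 4 and 2.25, 3.54, 2.67 and 3.80 in whole blood. It differed by 2.69 ± 0.36 (adjusted p = 0.000107). Granzyme M, GZMM, stood at -0.14, 1.12, -0.17 and 1.17 in PBMC and at -2.93, -1.35, -3.28 and -0.75 in whole blood. Its difference of 2.57 ± 0.60 (adjusted p = 0.00321) varied most between birds among the granule effectors, from 1.92 to 3.1. SERPINB6, an inhibitor of serine proteases, differed by 2.29 ± 0.16.

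Granule release uses general machinery of lysosomes and vesicles. Its genes did not share a direction, and the 33.3% that rose lie near the 39.7% of all features. Of 6 tested, LYST (0.96 ± 0.28), a regulator of lysosome size, and UNC13D (0.94 ± 0.20), which primes granules for fusion, rose. LAMP1 (-3.07 ± 0.15) and LAMP2 (-0.80 ± 0.16), lysosome membrane proteins, fell. The second LAMP2 probe, at -0.23, did not pass, and the mean of the LAMP2 probes gave -0.51. RAB11B (0.34 ± 0.15) and VAMP7 (-0.24 ± 0.24) did not pass. RAB11B passed as higher with normexp (0.38), quantile normalization (0.86) and cyclic loess (0.88). LAMP1 fell on all 4 of its probes, while for VAMP7 1 probe rose and 3 fell, and the mean of its probes passed as lower (-0.69, adjusted p = 0.0305). UNC13D had a second probe at -0.27, and the mean of its probes gave 0.33 (adjusted p = 0.0694). LYST did not pass in slide row 2 by itself (1.02, adjusted p = 0.139) or without bird 2 (0.90, adjusted p = 0.058).

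Among secreted proteins and death ligands, 5 of 7 tested genes, IFNG and XCL1 among them, rose and none fell, at a median of 2.54 (1.13 with normexp). Over all features, 39.7% rose and 39.4% fell. The chemokine CCL5, which attracts T cells, stood at -2.09, -0.99, -1.53 and -0.73 in PBMC of birds 1 to 4 and at -4.91, -3.75, -4.73 and -3.19 in whole blood, a difference of 2.81 ± 0.43 (adjusted p = 0.000246; 1.72 with normexp and 1.82 in the authors' values). TNFSF10, the death ligand known as TRAIL, differed by 2.39 ± 0.23 (1.13 and 1.22 there) and IL16, a T cell attractant, by 2.54 ± 0.20. FASLG, the other death ligand of killer cells, did not pass (0.16 ± 0.26, adjusted p = 0.581), nor did the gene named CCL4 (0.30 ± 0.29), of whose 3 probes 2 fell, the lowest at -1.75; the mean of its probes gave -0.92 (adjusted p = 0.0187). IL2, CSF2, TNFSF15 and IL10 were too dim to be tested.

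Among receptors for cytokines that drive killer cells, 6 of 8 tested genes, IL18R1 among them, rose and none fell, at a median of 2.02 (1.49 with normexp). The shares over all features were 39.7% and 39.4%. IL21R stood at -2.91, -2.13, -3.02 and -2.22 in PBMC and at -6.62, -4.48, -5.88 and -4.94 in whole blood, where it was well above background on 2 of 4 arrays, a difference of 2.91 ± 0.45 (1.22 with normexp and 1.44 in the authors' values). The mean of the IL21R probes gave 1.45. The interleukin 7 receptor IL7R differed by 2.74 ± 0.14, IL10RA by 2.10 ± 0.18, the shared chain IL2RG by 1.94 ± 0.15 and IL10RB by 0.81 ± 0.19. The remaining chains of the interleukin 2 receptor, IL2RB (0.40 ± 0.17, adjusted p = 0.0557) and IL2RA (0.02 ± 0.23), did not pass. IL2RA had a probe at 2.61 and another at -0.11, and the mean of its probes passed as higher (0.84, adjusted p = 0.00093). IL10RB had a probe at -0.48, which did not pass. The probe used for IL10RB did not pass in slide row 2 by itself (0.44, adjusted p = 0.121).

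Of the signals that act on killer cells and the receivers of their products, 2 of 7 tested genes were higher, 3 lower and 2 did not pass. These counts lie near the shares of all features, 39.7% higher and 39.4% lower. IL18, the ligand of the IL18R1 receptor, was well above background on all PBMC arrays and on no whole blood array. Its measured level was 5.42-fold higher in PBMC (limma, adjusted p = 0.000299), with means of -3.44 in PBMC and -5.88 in whole blood. This fold and its p rest on whole blood values not well above background. The fold is therefore an estimate and not a lower limit. On the log2 scale, normexp gave 0.71 and the authors' values 0.79. IL15, which sustains natural killer cells, was instead lower in PBMC, at 2.42, 2.04, 2.99 and 2.64 in birds 1 to 4 against 5.40, 4.82, 5.29 and 4.55 in whole blood (-2.49 ± 0.26, adjusted p = 1.83e-05). On its 4 probes IL15 fell in each. The death receptor FAS rose by 1.23 ± 0.20. TNFRSF10B, named as a receptor of TRAIL, fell by 2.61 on the log2 scale (SE 0.23), on all 5 probes. Of these, 3, the one used among them, carry the symbol RHOBTB2 in their name, a neighbouring gene in GRCg7b, but the gene number of TNFRSF10B, and the other 2 were matched by RefSeq accession. IRF1, an interferon-induced factor, differed by -1.82 ± 0.15 (-1.18 with cyclic loess). The interferon gamma receptor chains did not pass (IFNGR1 -0.25 ± 0.16, IFNGR2 -0.20 ± 0.24) on their brightest probes. For IFNGR1, 2 of 3 probes fell, the lowest at -0.99, and it passed as lower with the mean of its probes (-0.59, adjusted p = 0.0030) and in the authors' values (-0.39, adjusted p = 0.0187). XCR1, the receptor of XCL1, passed the background flag on 3 of 4 PBMC arrays and no whole blood array. It gave 3.81-fold over the floor described for IFNG, and no test. IL12B and IL21 were on no array well above background.

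Of 11 tested surface receptors and adaptors of killer cells, 10 rose and none fell, at a median of 1.43. The shares over all features were 39.7% and 39.4%. CRTAM, an adhesion receptor of activated killer T cells, differed by 2.66 ± 0.25 (adjusted p = 1.10e-05; 1.07 under normexp, 1.21 for the authors' values) and CD226, which binds nectin-like ligands on targets, by 2.52 ± 0.14 (1.26 and 1.4). LAG3, an inhibitory receptor, differed by 2.45 ± 0.33, and the integrin chain ITGB2 by 2.01 ± 0.17. The co-receptor chains of killer T cells were also higher, CD8A by 1.02 ± 0.15 (1.82 averaging its probes) and the gene named CD8BP in the reference, matched through the synonym CD8B, by 2.18 ± 0.36. CD7 rose by 1.43 ± 0.33 (2.10 averaging its probes), the signalling chain CD247 by 1.43 ± 0.14, the adaptor FCER1G by 1.41 ± 0.40 and PDCD1 by 1.33 ± 0.25. FCER1G also serves monocytes and was the member of this group whose samples overlapped besides NCAM1. NCAM1, the adhesion molecule known as CD56 on human natural killer cells, did not pass (0.15 ± 0.13), but did with quantile normalization (0.46, adjusted p = 0.0107) and cyclic loess (0.42, adjusted p = 0.0159), and its other tested probe rose at 1.21. In slide row 2 alone FCER1G (1.41, adjusted p = 0.128) and PDCD1 (1.13, adjusted p = 0.0582) did not pass.

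Of 9 tested transcription factors of killer and effector T cells, 8 rose and 1 fell, where 39.7% of all features rose and 39.4% fell. EOMES, which drives killer cell genes, stood at -2.72, -1.19, -2.08 and -1.29 in PBMC and at -5.61, -4.23, -4.87 and -3.57 in whole blood, where 3 of 4 arrays were well above background. Its difference was 2.75 ± 0.48 (adjusted p = 0.000557; 1.53 with normexp and 1.65 in the authors' values). ID2 (2.47 ± 0.15), IKZF2 (2.45 ± 0.24; 1.06 with normexp and 1.22 in the authors' values), TCF7 (2.44 ± 0.13; 1.57 with the mean of its probes), ETS1 (2.39 ± 0.34) and RUNX3 (2.29 ± 0.23) lay close together. IKZF2 was well above background on 3 of 4 whole blood arrays. GATA3 (1.04 ± 0.14; 1.67 with cyclic loess) and IKZF3 (0.89 ± 0.14) rose less. NFIL3, which in mice is needed to form natural killer cells and also acts in other blood cells, fell by 2.85 on the log2 scale (SE 0.36).

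Over the 7 lists of 116 genes, 61 matched a probe and 54 were tested. Of these, 38 rose, or 70.4% against 39.7% of all features, 6 fell, where 39.4% of all features did, and 10 did not pass. Their median difference was 1.69 (1.12 with normexp). Among the 54, 47 had the background flag in whole blood of every bird. IFNG, IL18, IL21R, CRTAM, EOMES and IKZF2 lacked it in some or all birds and entered the test only through PBMC. That these genes rose is therefore no further evidence, but the counts and medians here and of their lists include them. IL2RA entered in the same way and did not pass. The shares of all features rest on the same filter. The genes that fell were LAMP1, LAMP2, IL15, TNFRSF10B, IRF1 and NFIL3. The remaining 55 listed genes, among them perforin (PRF1), TBX21 and KLRD1, matched no probe by name and were not analysed here.

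**Figure D3:**
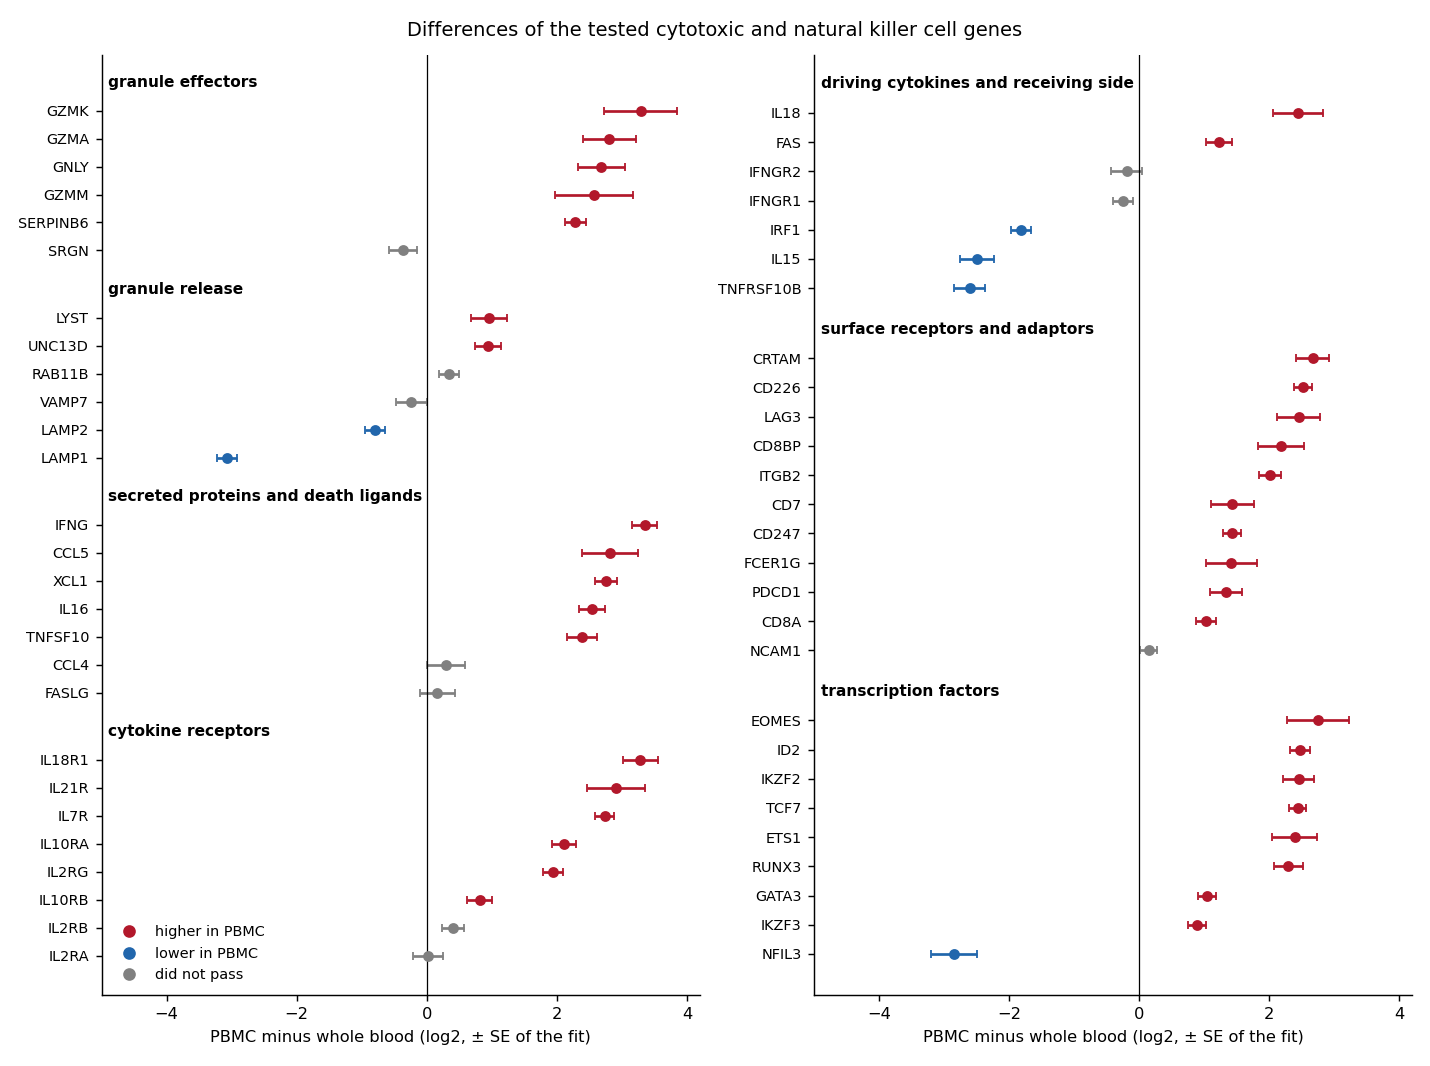
PBMC minus whole blood (log2, ± SE of the limma fit, n = 4 per group) for the 54 tested genes of the 7 lists. Points in red passed as higher in PBMC (38 genes), blue as lower (6) and grey did not pass (10). The red points include IFNG, IL18, IL21R, CRTAM, EOMES and IKZF2, which entered the test only through PBMC.

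Lymphocyte, monocyte and thrombocyte markers moved with these genes, and their part in the result was not tested. The counts that follow stand beside 39.7% of all features higher and 39.4% lower. All 6 tested T cell markers rose, at a median of 2.31, and their summed linear level was 286 to 380 in PBMC and 78.6 to 103 in whole blood. The summed level of the 5 cytotoxic genes was 7.97 to 19.9 in PBMC and 1.24 to 3.00 in whole blood. The marker BLNK was matched through a synonym to the gene now named SH2D6, and ALAS2 through a synonym to ALAS1, the form made in all cells, so neither is a sure marker. Of the heterophil markers, S100A9, GAL1 and CATHL2 were matched through synonyms to S100A12, AvBD1 and CATH2. Of the B cell markers, SH2D6 included, 7 of 8 tested rose (summed level of 9 matched, 40.5 to 69.4 in PBMC and 8.0 to 11.7 in whole blood), of the monocyte markers 5 of 5 (7 matched, 25.6 to 51.0 in PBMC and 4.75 to 10.3 in whole blood) and of the thrombocyte markers 7 of 7 (239 to 345 in PBMC and 53.4 to 87.3 in whole blood). The 8 genes of the red cell list all fell, to a summed level of 364 to 878 in PBMC, against 2635 to 2898 in whole blood. The fall of ALAS1 (-0.66) did not pass with quantile normalization (-0.26, adjusted p = 0.163) or cyclic loess (-0.33, adjusted p = 0.087). Heterophil markers gave 1 higher and 2 lower of 6 (23.0 to 61.7 in PBMC and 29.9 to 42.5 in whole blood). The 1 higher was AVD, at a mean of 4.27 in PBMC and 1.85 in whole blood, the brightest of the 6 in PBMC. It weighs most in the summed PBMC level, so the overlap of the sums does not show that the other markers were alike. On the log2 scale MMP9 fell by 6.40 and S100A12 by 2.98, and CSF3R, CATH2 and AvBD1 did not pass. With the bird as a replicate block, AvBD1 also passed as lower (-0.78, adjusted p = 0.00826, against 0.127 without it). CD14 was well above background on no array.

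Set against the T cell receptor chain CD3E in the same bird, whose own difference was 1.93 ± 0.15 (SE), the measured differences were larger. The excess over CD3E was 0.61, 1.16, 0.69 and 1.04 in birds 1 to 4 for GZMA, and 1.14, 1.62, 1.39 and 1.26 for GZMK. For XCL1 it was 0.80, 1.07, 0.68 and 0.76, and for IL18R1 0.83, 1.59, 1.26 and 1.73. These are differences of differences on the log2 scale, above 0 in 4 of 4 birds for the brightest probe of each of these genes. The third GZMA probe differed by 1.92 in bird 3, less than CD3E in that bird, at 2.21. The CD3E probe used gave the smallest difference of its 4 probes, which ran from 1.93 to 2.33, and the mean of its probes gave 2.20. IFNG is left out, since it was not well above background in whole blood. These excesses were not tested and depend on the probe, the marker and the processing. CD3D rose by 1.83, but ZAP70 by 2.25, CD28 by 2.37, CD5 by 2.47 and CD4 by 2.82 ± 0.25, as much as GZMA. With normexp CD3E differed by 1.96, IL18R1 by 2.12, XCL1 by 2.37, GZMK by 2.41, CD5 by 2.45 and GZMA by 2.70. With cyclic loess CD3E differed by 2.54 and XCL1 by 2.62.

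The birds differed in the same way for a group of cytotoxic genes. Birds 2 and 4 were above birds 1 and 3 in both PBMC and whole blood for 11 of the 54 tested listed genes, where 6.9% of all features showed this. The opposite order, birds 1 and 3 above birds 2 and 4, was seen in 3 of the 54 (ETS1, VAMP7 and IFNGR2), where 6.49% of all features showed it. Those with birds 2 and 4 on top were GZMA, GZMK, GZMM, GNLY, CCL5, EOMES, IL21R, CD7, CRTAM, LAG3 and LAMP2. This rests on the brightest probe of each gene. The third GZMA probe lacked the order, with bird 3 at 0.37 and bird 4 at -0.36 in whole blood. The second IL18R1 probe, not well above background in whole blood, showed it. In whole blood, IL21R and CRTAM were well above background on only 2 arrays and EOMES on 3. None of the 6 T cell, 8 B cell, 5 monocyte, 7 thrombocyte, 8 red cell and 6 heterophil markers had birds 2 and 4 on top in both. At a share of 6.9%, each of these lists is too short for its lack of the order to be a contrast. The opposite order was seen in 3 of the B cell markers (PAX5, POU2AF1 and TNFRSF13B, where for PAX5 the mean of birds 2 and 4 minus that of birds 1 and 3 was -0.93 in PBMC and -0.66 in whole blood) and in the red cell marker EPB41. For GZMK the mean of birds 2 and 4 exceeded that of birds 1 and 3 by 1.49 in PBMC and 1.67 in whole blood, for GZMM by 1.30 and 2.05, for EOMES by 1.16 and 1.34, and for CCL5 by 0.95 and 1.35. For GZMA they were 0.91 and 0.81, and for IL18R1 0.64 and 0.38. For CD3E the same values were -0.05 and 0.30, and for CD247 -0.13 and 0.02. Gaps like that of GZMA were not particular to cytotoxic genes. The heterophil marker MMP9, well above background on 3 of 4 PBMC arrays, had 1.16 and 0.87, and the thrombocyte marker P2RX1 0.76 and 0.65, both without the order. For XCL1 the values were -0.10 and 0.08. For IFNG the value in PBMC was 0.15, and whole blood gives no order of birds. Birds 2 and 4 are slide row 1, so bird and slide row cannot be told apart here. This grouping was noted after the values were seen.

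**Figure D4:**
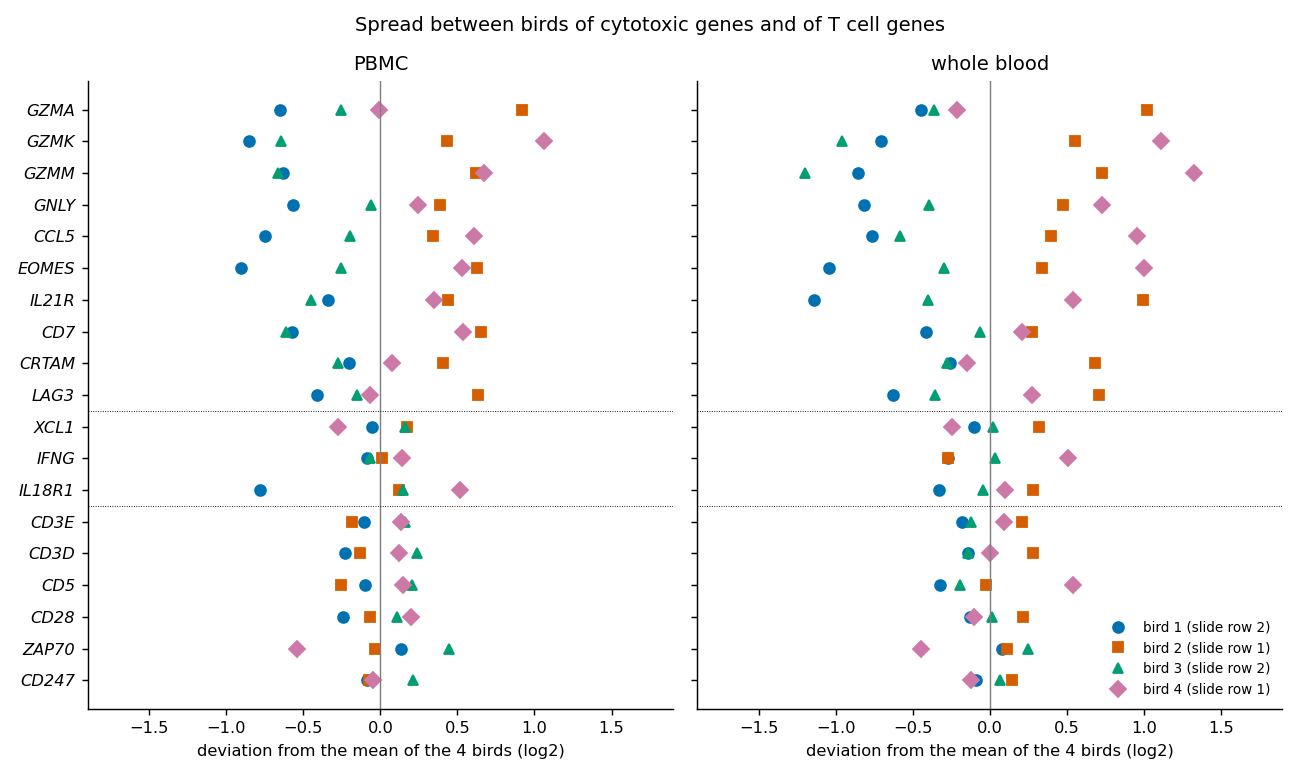
Deviation of each bird from the mean of the 4 birds (log2, brightest probe of each gene) in PBMC and in whole blood, for 10 cytotoxic genes in which birds 2 and 4 lie above birds 1 and 3, for XCL1, IFNG and IL18R1, and for 6 T cell genes. The genes of the upper block were picked for this order, so birds 2 and 4 lie to the right there by selection. LAMP2, which also has the order, is not shown. None of the T cell genes in the lower block has birds 2 and 4 above birds 1 and 3 on both sides. With 6.9% of all features showing the order, so few genes give no contrast. CD247 there is from the list of surface receptors and adaptors, and the T cell marker CD4 is not shown. Whole blood values of IFNG are not well above background.

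The genes whose profile over the 8 arrays was most like that of each of the 5 genes were found by the root mean square difference between profiles centred on their own mean, among 5961 other named genes. For GZMK the nearest were CCL5 (0.37), RNASET2 (0.41) and GZMM (0.42), beside a median of 1.81 over all genes compared. For GZMA they were DPH6 (0.23), AGK (0.29) and CRTAM (0.29), for XCL1 GLCCI1, IDUA and POLE2 (0.13 to 0.14), for IFNG UTRN, GNAI1 and DFNA5 (0.24 to 0.26) and for IL18R1 PRTFDC1, GOLIM4 and ALCAM (0.17 to 0.26). None of the 5 genes was among the 3 nearest of another. GZMA and GZMK differed by 0.74, XCL1 and GZMK by 0.93, and the closest pair, IFNG and IL18R1, by 0.38. All these genes share a step between the sample types, and the whole blood values of IFNG are not well above background.

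The differences of GZMA, GZMK, XCL1 and IL18R1 held under other ways of making the values, apart from their size. The difference of GZMA lay between 2.50 and 3.15 over 24 alternatives, XCL1 between 2.32 and 3.01, GZMK between 2.41 and 3.66 and IL18R1 between 2.12 and 3.55, each time past the threshold. IFNG lay between 0.66 and 3.65 over 23 alternatives. It passed in each, but on whole blood values not well above background, so this is no further evidence.

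**Figure D5:**
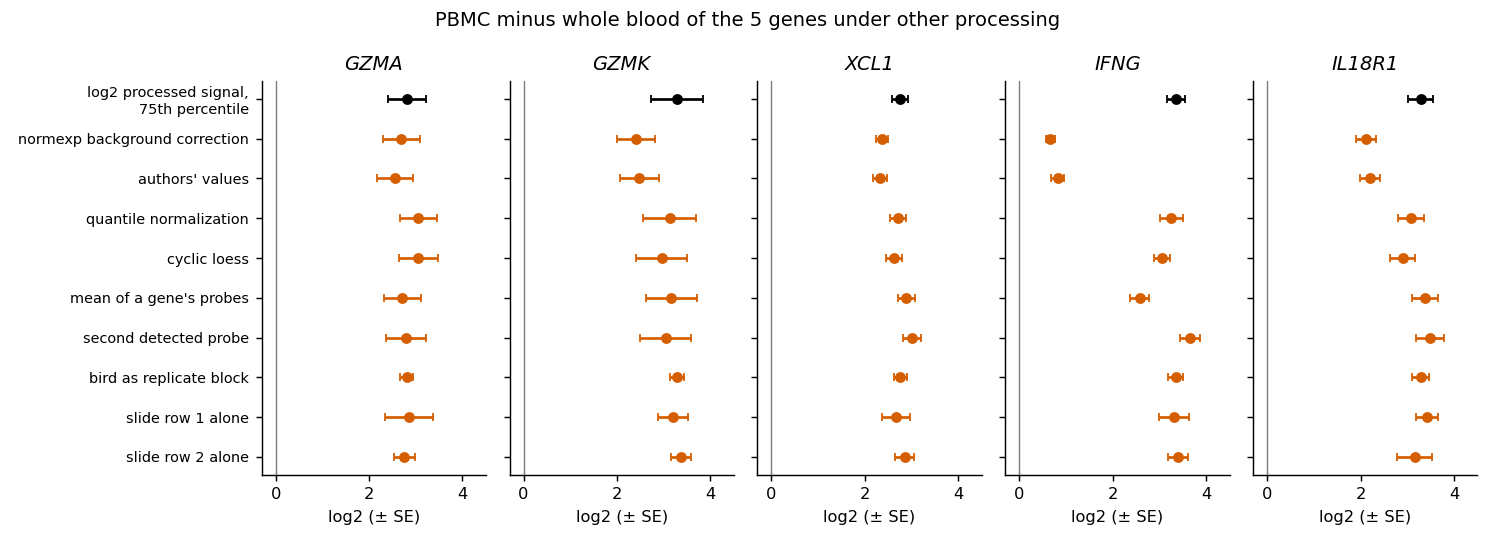
PBMC minus whole blood (log2, ± SE) for the 5 genes under the values used here (black, first line) and 9 alternatives (orange). The difference of IFNG is 0.66 with normexp, 0.82 for the authors' values, while GZMA stays between 2.55 and 3.06.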

How the data were processed

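Intensity values were deposited by the authors as Agilent Feature Extraction files, 1 per sample. Per the file headers (software version 10.7.3.1, while the submitters' processing notes name 10.7.1.1), the processed signal was made within each array; the correction settings are not given in the sources used here. The authors' deposited table holds log2 values of 46154 features, each equal to the log2 median pixel signal minus 1 constant per array (column medians 0), and 0 columns were left unused. Here, control spots (1319) and outlier spots were left out, the log2 processed signal was scaled to the array's 75th percentile, and spots of a probe were averaged. Features were tested with limma 3.58.1 in R 4.3.3 if all 4 arrays of either group had the probe above background by the scanner flag. Probes were named through the RefSeq table of GRCg7b. Of 12933 probes with a RefSeq accession 10812 matched, and no probe was named by coordinates, since the array was designed on another build. Gene positions in GRCg7b serve only the remarks on GZMK within GZMA and on RHOBTB2. Genes named in the text are the 5 genes, all matched genes of 7 lists, 3 nearest profiles per gene and markers. Members, lists and tests were chosen with earlier results of these data known, so lists have counts and medians and no test. Some genes of the lists are not reported here and are left out of their counts. Replicate numbers pair the samples, since both came from the same birds (deviations correlated within birds at 0.36 to 0.48, at most 0.04 between birds). The fit has no bird block, and a block is an alternative. The fit was run on simulated data drawn independently for each array. That run leaves out the link between samples of a bird, so it does not test the fit for paired samples. The number of arrays limits the precision.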

Additional observations from a re-analysis of the deposited data

Results flagged for a closer look

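In a group of 4 samples, a sample was taken as far from the others when its gap to the nearest was larger, relative to the whole range, than Dixon's critical value. This held in 5 of 108 groups of the tested cytotoxic genes, and chance alone gives about 1 group in 20. The whole blood sample of bird 2 was high for GZMA at 1.31, with the next at 0.07, and for CRTAM at -4.77, with the next at -5.59. The PBMC sample of bird 1 was low for IL10RB at -1.44, next to -1.18, and for PDCD1 at -2.01, next to -1.48. The PBMC sample of bird 3 was high for CD247 at 5.19, next to 4.93. Without whole blood of bird 2, GZMA differed by 3.15.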

How the results depend on the processing

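GZMA, GZMK, XCL1 and IL18R1 stayed higher in PBMC and past the threshold in every alternative run, 24 each. IFNG did so in 23, and is absent when probes must be above background on all 8 arrays. Its runs use whole blood values not well above background and are no further evidence. Leaving out samples gave 2.50 to 3.15 for GZMA, 2.93 to 3.66 for GZMK, 2.68 to 2.87 for XCL1, 3.26 to 3.52 for IFNG and 3.11 to 3.55 for IL18R1. Over all alternatives 33 to 40 listed genes rose, against 38 in the values used, and 6 to 9 fell, against 6. The features that differed numbered 22133 to 28369, against 26712. With the bird as a replicate block, 27767 features differed, 38 listed genes rose and 6 fell, and no call of a listed cytotoxic gene changed. The median of all features shifted by -0.153 in the authors' values and by -0.106 with cyclic loess.

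Sign changes occurred in 5 genes that had not passed, and the cause was not tested. CCL4 was -0.92 with the mean of its probes. FASLG was -0.046 in the authors' values, -0.14 with quantile normalization, -0.28 with cyclic loess and -0.089 in slide row 2, and leaving out samples of bird 2 gave -0.043. IFNGR2 was 0.15 with quantile normalization and 0.10 with cyclic loess. IL2RA was -0.19 with normexp, -0.25 in the authors' values, -0.26 with quantile normalization, -0.36 with cyclic loess and -0.060 in slide row 1. Leaving out 1 sample gave IL2RA values between -0.15 and 0.13, and leaving out bird 1 gave -0.046. IL2RB was -0.028 with cyclic loess. For IFNG, IL18 and other genes near background in whole blood, the size of the difference is uncertain and depends on the processing. The values used here gave the larger differences, 3.35 for IFNG and 2.44 for IL18, against 0.66 and 0.71 with normexp.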
